A study of Saccharomyces cerevisiae with 24 samples.

Results

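The 10 genes described here encode translation initiation factors and the poly(A)-binding protein of budding yeast (Saccharomyces cerevisiae). They were taken by ORF name, as CDC33, TIF4631, TIF4632, TIF1, TIF2, TIF3, PAB1, SUI1, SUI2 and SUI3, out of 6575 ORFs in the expression table. All 10 passed the filter on low values (a mean of 1 TPM or more), as 5965 ORFs did. CDC33, TIF4632, TIF3, PAB1, SUI2 and SUI3 were also among the 4427 ORFs of the promoter and gene body tables, while chromatin at TIF4631, TIF1, TIF2 and SUI1 was not analysed here. Every sample came from W303 cells of mating type a in rich medium, a laboratory strain that carries the alleles ade2-1, can1-100 and his3-11,15 together with trp1-1, ura3-1 and a LEU2 allele with the changes leu2-3 and leu2-112. Cells were sampled before any cadmium (0 min) and 7.5, 15, 30, 60 or 120 min after cadmium chloride had been added to 1 mM. The 24 samples were 12 RNA samples and 12 samples of chromatin cut with micrococcal nuclease (MNase), which digests DNA that no protein covers. The labels give 2 samples per assay and time point, and the study's own description has the repeats of the MNase samples as technical ones.

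Initiation brings the small ribosomal subunit to the start codon of an mRNA. The factor eIF4E (CDC33) binds the cap at the 5′ end and eIF4G (TIF4631 and TIF4632) is the scaffold that joins it to the helicase eIF4A (TIF1 and TIF2), which eIF4B (TIF3) stimulates. Pab1 coats the poly(A) tail and binds eIF4G, eIF1 (SUI1) guards the choice of the start codon, and eIF2 (SUI2 and SUI3 encode its alpha and beta subunits) delivers the initiator tRNA. Phosphorylation of the alpha subunit by the kinase Gcn2 is a well-known way in which stressed cells lower initiation.

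Each deposited column holds 1 value per ORF and time point and names no replicate. Differences between columns therefore carry no replicate error and no p-value. Levels in TPM are corrected for gene length and add up to the same total in every column, so fewer transcripts of a gene per cell and more of all others cannot be told apart. Behind each expression column stood 31543389 to 33946108 implied reads, and each promoter column summed to between 653634 and 1050068 fragments. RNA changes are differences of log2(TPM + 1) from 0 min and their errors (±) are counting errors only. A gene is said to have fallen or risen where this difference reached 1. Where 6 values of a gene follow each other they are in the order 0, 7.5, 15, 30, 60 and 120 min, and 5 changes are in the same order from 7.5 min on. Across all ORFs the median changes were -0.10, 0.11, 0.35, 0.44 and 0.34, and a gene's distance from them is called its relative change.

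Transcripts of 9 of the 10 genes fell after cadmium, and TIF4632 was the exception. None of the 10 had fallen at 7.5 min, when 1.74% of all ORFs had. SUI1 alone had fallen at 15 min, against 12.6% of all ORFs. At 30 min 9 of 10 had fallen, against 16.7% of all ORFs, and the number was 9 again at 60 min (18.5% of all ORFs) and at 120 min (20.2%). No member rose at any time point, whereas 3.3%, 18.3%, 29.8%, 34.8% and 33.8% of all ORFs had risen at the 5 treated time points in turn. The median changes of the 10 were -0.10, -0.67, -1.50, -2.11 and -2.23. The corresponding relative changes were -0.01, -0.77, -1.86, -2.54 and -2.57. The summed share of the 10 genes in all TPM was 0.617%, 0.562%, 0.368%, 0.205%, 0.156% and 0.144% in time order.

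**Figure D1:**
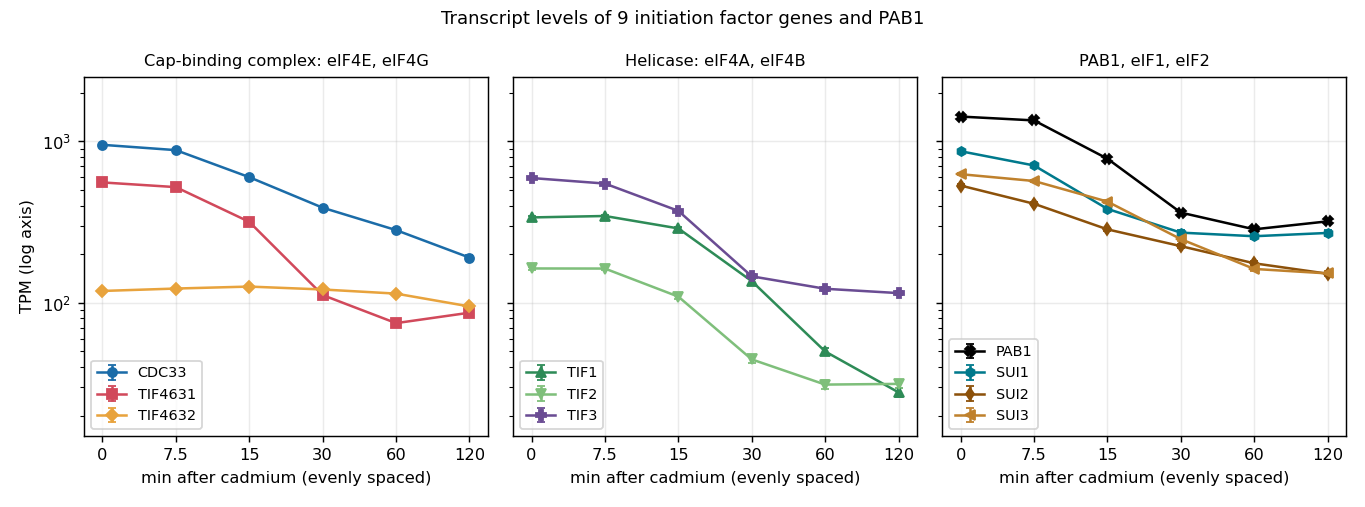
TPM (log axis) of the 10 genes against the time after cadmium in min, drawn at even spacing, in panels by role. Points are the authors' values per time point and bars are 95% counting intervals, mostly smaller than the symbols. TIF4632 stays between 94.9 and 126 TPM, and the other 9 genes are lower from 15 min on than at 0 min.

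The gene of the cap-binding protein, CDC33 (YOL139C, Crick strand of chromosome XV, 60383 to 61024), was lower at each time point than at the one before. Its levels were 952, 883, 600.1, 388, 282 and 191 TPM in time order. The log2 change was -1.29 ± 0.02 by 30 min and -2.31 ± 0.03 by the end of the time course, which left 20.0% of the starting level. Between 60 and 120 min it changed by a further -0.56, whereas the median ORF changed by -0.05.

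The paralogous eIF4G genes followed different courses. TIF4631 (YGR162W, Watson strand of chromosome VII, 824059 to 826917) had levels of 557, 521, 317, 112, 74.8 and 86.8 TPM. It fell by 2.31 ± 0.02 on the log2 scale within 30 min and by 2.88 ± 0.02 within 60 min. Between 15 and 30 min alone it fell by 1.50, the largest step of any member between neighbouring time points, which lie unequally far apart. TIF4632 (YGL049C, Crick strand of the same chromosome, 406860 to 409604) had levels of 118, 123, 126, 121, 114 and 94.9 TPM, and so passed the threshold nowhere.

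The log2 changes of TIF4632 were 0.05, 0.09, 0.03, -0.05 and -0.32, and the counting error of each was 0.02. The sign of the values for 15 and 30 min depends on the scale. With columns rescaled to a common median ratio, the changes from 15 min on were -0.04, -0.33, -0.50 and -0.67. Relative changes of TIF4632 were 0.15, -0.02, -0.32, -0.49 and -0.66. As deposited it lay within 0.5 of its starting log2 value at all 5 treated time points, as did 851 of the 5965 ORFs. With rescaled columns it was beyond 0.5 at 120 min.

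The ratio of the 2 scaffold transcripts turned over during the time course. Before cadmium, TIF4631 was 4.70 times as abundant as TIF4632 (95% counting interval 4.60 to 4.81). The ratio was 4.25 after 7.5 min and 2.52 after 15 min. It then stood at 0.923 after 30 min (interval 0.897 to 0.951), 0.656 after 60 min (0.635 to 0.679) and 0.915 after 120 min (0.884 to 0.946). TIF4632 thus made up 17.5% of the summed eIF4G TPM before cadmium and 60.4% after 60 min. The sum itself went from 675 to 182 TPM over the 120 min, or to 26.9% of its start. A ratio of genes within a column does not depend on how columns are scaled.

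**Figure D2:**
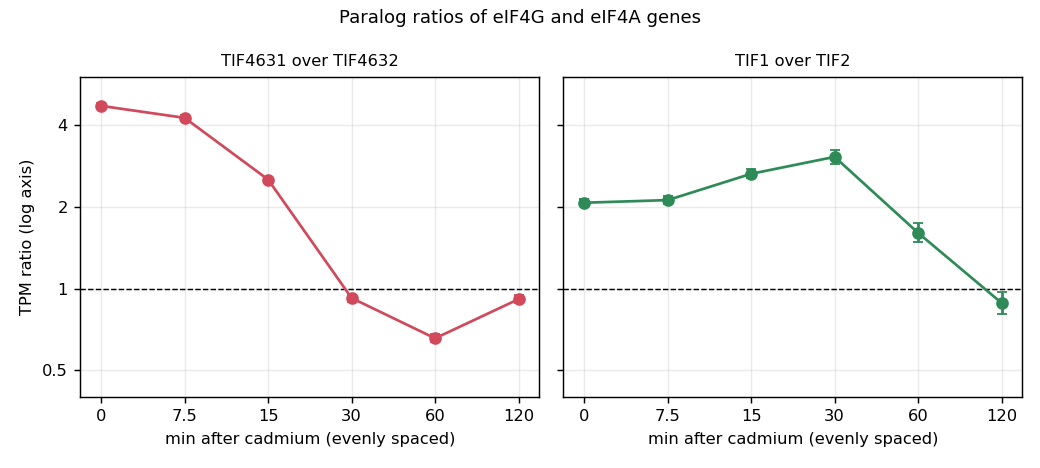
TPM of TIF4631 divided by that of TIF4632, and of TIF1 divided by that of TIF2, on a log axis against the time after cadmium in min at even spacing. Bars are 95% counting intervals and the dashed line marks equal levels. The bars do not cover how reads that match both TIF1 and TIF2 were counted. The eIF4G ratio goes from 4.70 to 0.656 at 60 min, and the eIF4A ratio goes up to 3.05 at 30 min before it goes down to 0.886 at 120 min.

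The helicase genes TIF1 and TIF2 encode the same protein from near-identical ORFs. How reads that match both were counted is not given in the sources used here, so the single levels are uncertain and the sum is given too. TIF1 (YKR059W, Watson strand of chromosome XI, 554987 to 556174) had levels of 338, 345, 289, 136, 49.9 and 27.9 TPM. TIF2 (YJL138C, Crick strand of chromosome X, 153504 to 154691) had levels of 163, 163, 109, 44.6, 31.1 and 31.5 TPM. TIF1 moved later and further, with a log2 change of -0.23 ± 0.02 after 15 min and -3.55 ± 0.05 after 120 min, the lowest value of any member. The corresponding changes of TIF2 were -0.58 ± 0.03 and -2.34 ± 0.05, and its levels at 60 and 120 min differed by less than counting error. Summed, the eIF4A genes held 501, 508, 398, 181, 81.1 and 59.3 TPM, so 11.8% of the start was left. Per eIF4G transcript there were 0.742 eIF4A transcripts before cadmium, 0.898 after 15 min, 0.429 after 60 min and 0.326 after 120 min.

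The eIF4B gene, TIF3 (YPR163C, Crick strand of chromosome XVI, 868645 to 869955), went down mainly between 15 and 30 min. Its levels were 593, 548, 371, 146, 122 and 115 TPM. The changes over the same period were -0.11, -0.67, -2.02, -2.27 and -2.36, with counting errors between 0.01 and 0.02, so most of the fall was complete by 30 min.

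PAB1 (YER165W, Watson strand of chromosome V, 510373 to 512106) had the highest level of the 10 genes before cadmium, above 98.0% of all ORFs. Its levels were 1424, 1349, 781, 362, 285 and 319.5 TPM. It fell by 1.97 ± 0.01 on the log2 scale within 30 min and by 2.32 ± 0.01 within 60 min. The last level was higher than the one before it by 0.16 ± 0.02. As deposited, TIF4631 went up by 0.21 ± 0.03 between 60 and 120 min. PAB1 and TIF4631 were then the only members to go up by more than 1.96 counting errors. In the same interval 6 members went down by more than that, and 56.8% of all ORFs went down by any amount. Relative to the median ORF, which changed by -0.05, SUI1 also went up by more than 1.96 counting errors (0.12 ± 0.04). On that scale TIF3 and SUI3 (each -0.04 ± 0.03) no longer went down beyond them. PAB1 transcripts per summed eIF4G transcript numbered 2.11 before cadmium, 1.51 after 60 min and 1.76 after 120 min.

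The genes of eIF1 and eIF2 alpha had the lowest early values of the 10, although neither had fallen by 7.5 min, and SUI2 reached the threshold only by 30 min. SUI1 (YNL244C, Crick strand of chromosome XIV, 187170 to 187496) had levels of 869, 709, 382, 272, 258 and 271 TPM. Its log2 changes were -0.29, -1.18, -1.67, -1.75 and -1.68, with counting errors between 0.02 and 0.03, so it was nearly level from 30 min on. SUI2 (YJR007W, Watson strand of chromosome X, 451020 to 451934) had levels of 533, 411, 285, 224, 176 and 151 TPM. Its change of -0.37 ± 0.02 after 7.5 min was the lowest of the 10 at that time, when the relative change of SUI2 was -0.28 and that of SUI1 -0.20. These early changes lay at the 21.2nd and the 28.2nd percentile of all ORFs. The other 8 members lay between -0.14 and 0.05 then. CDC33, TIF4631, TIF2 and PAB1, with early values of -0.11 to -0.002 as deposited, had positive values of 0.003 to 0.11 with rescaled columns.

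The eIF2 beta gene, SUI3 (YPL237W, Watson strand of chromosome XVI, 100496 to 101353), had levels of 626, 568, 424, 248, 162 and 152 TPM. SUI2 and SUI3 ended at levels that differed by less than counting error. Their ratio was 0.851 before cadmium (95% counting interval 0.832 to 0.870), 0.673 after 15 min (0.653 to 0.694) and 0.995 after 120 min (0.950 to 1.04). GCD11, which encodes eIF2 gamma, the subunit that binds GTP, had levels of 506, 445, 290.5, 139, 105 and 99.3 TPM. The most abundant of the 3 subunit transcripts exceeded the least abundant 1.24 times before cadmium and 1.78 times after 30 min.

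Before cadmium, the order of levels was PAB1, CDC33, SUI1, SUI3, TIF3, TIF4631, SUI2, TIF1, TIF2 and TIF4632, and every pair of neighbours in it differed by more than 1.96 counting errors. After 120 min the order was PAB1, SUI1, CDC33, SUI3, SUI2, TIF3, TIF4632, TIF4631, TIF2 and TIF1, and of these neighbours SUI3 and SUI2 did not differ beyond counting error. TIF4632 thus went from the last place to the place after TIF3, while TIF1 went to the last. Counting error does not cover how reads that match both TIF1 and TIF2 were counted, so the places of these 2 genes are uncertain. After 15 min the neighbours SUI1 and TIF3, and TIF1 and SUI2, did not differ beyond counting error, nor did PAB1 and CDC33 after 60 min.

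**Figure D3:**
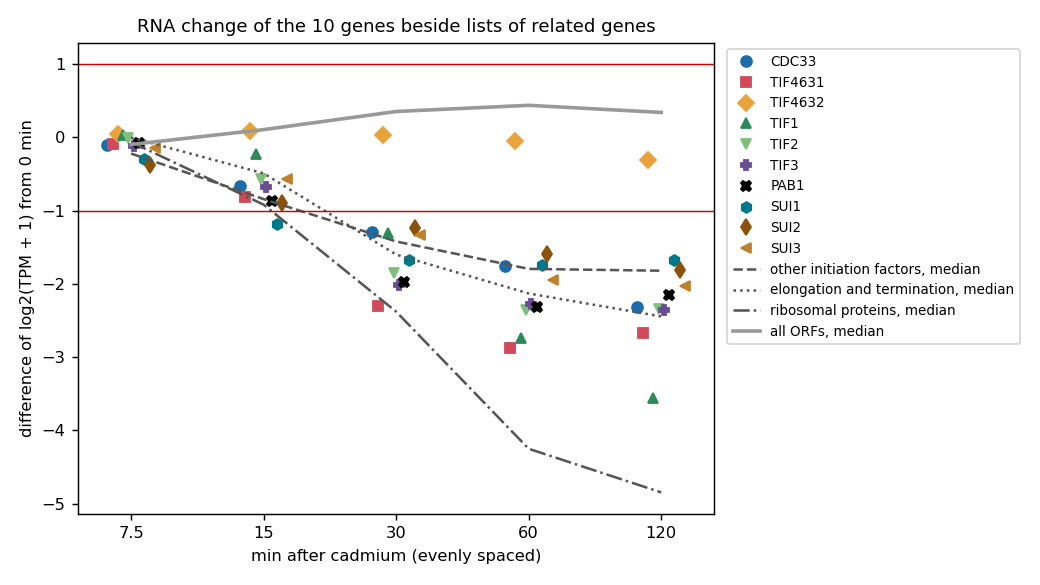
Difference of log2(TPM + 1) from 0 min for each of the 10 genes (symbols) against the time after cadmium in min, at even spacing, with the medians of related gene lists and of all 5965 ORFs as lines. Red lines mark differences of 1 and -1. At 60 min, 9 symbols lie between -2.88 and -1.60, below the median of all ORFs at 0.44 and above that of the ribosomal protein genes at -4.25.

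Most other genes of initiation fell as well. Of 21 further initiation factor genes, none had fallen after 7.5 min, when 1.74% of all ORFs had. At the later time points 8, 16, 18 and 15 had fallen in turn, against 12.6%, 16.7%, 18.5% and 20.2% of all ORFs. Each time 1 of the 21 had risen, against 18.3%, 29.8%, 34.8% and 33.8% of all ORFs. With rescaled columns 9, 17, 19 and 18 of the 21 genes had fallen, against 15.2%, 22.3%, 25.4% and 25.8% of all ORFs. The lower number at 120 min thus depends largely on the scale. The median changes of the 21 genes were -0.22, -0.84, -1.42, -1.80 and -1.82. The lowest mean changes over the treated time points were those of RLI1, NIP1, RPG1 and TIF6. RLI1, whose product recycles ribosomes and takes part in initiation, went from 349.6 to 28.9 TPM over the time course. NIP1 and RPG1, for 2 core subunits of eIF3, the factor that holds the small subunit in the initiation complex, went from 595 to 48.2 TPM and from 552 to 52.9 TPM. TIF6, for the anti-association factor eIF6, went from 562 to 99.4 TPM.

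Most core subunit genes of eIF3 and eIF2B had fallen by 30 min. None of either complex had fallen after 7.5 min, and 2 of 5 in each had after 15 min, when 12.6% of all ORFs had. The 5 eIF3 genes RPG1, PRT1, NIP1, TIF34 and TIF35 had all fallen from 30 min on, with log2 changes of -3.31 to -1.46 at 60 min. HCR1, the gene of a loosely attached eIF3 subunit, had levels of 250.02, 269, 288, 381, 480.2 and 427 TPM. Its largest change, 0.94 at 60 min, did not reach 1, and it was 0.49 with rescaled columns. All 5 genes of eIF2B, the exchange factor that reloads eIF2 with GTP, had fallen at 60 min, by log2 changes of -1.80 to -1.06. At that time 18.5% of all ORFs had fallen. At 120 min 3 eIF2B genes were past the threshold as deposited and all 5 with rescaled columns, in which GCD1 stood at -1.24 and GCD6 at -1.27. Of all ORFs, 20.2% had fallen by 120 min as deposited and 25.8% with rescaled columns. The single gene of the 21 that rose was DBP1, which encodes a helicase related to Ded1. Its levels were 2.17, 3.08, 16.9, 32.0, 43.3 and 72.8 TPM, a final log2 change of 4.54 ± 0.09. DED1, picked out after its values were seen, had levels of 811, 659.6, 516, 295, 273 and 413 TPM.

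Regulators of eIF4E and eIF2 did not move as a block. CAF20, for a protein that competes with eIF4G for eIF4E, went from 538 to 106 TPM and fell by 2.34 ± 0.04 on the log2 scale. EAP1, for the other such protein, had levels of 83.1, 87.5, 111, 104, 93.3 and 83.4 TPM and passed the threshold at no time. In the eIF2 kinase branch, 2 of 4 genes had fallen at 30 and 60 min and 3 at 120 min. With rescaled columns 3 had at each of these times. Of all ORFs, 16.7%, 18.5% and 20.2% had fallen at these times, and 22.3%, 25.4% and 25.8% with rescaled columns. The kinase gene GCN2 itself had 38.5 TPM before cadmium and 47.8 TPM at the end. GCN1 and GCN20, for its activators, went from 237 to 68.5 TPM and from 180.1 to 71.1 TPM. GCN4, whose translation rises when eIF2 is phosphorylated, had RNA levels of 1468, 1305, 747, 472, 357 and 353 TPM.

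Set beside other translation genes, the members had a shallower course than the ribosomal proteins. The 137 cytosolic ribosomal protein genes had median changes of -0.06, -0.92, -2.38, -4.25 and -4.85. For the 14 elongation and termination genes the medians were -0.004, -0.49, -1.60, -2.13 and -2.44. By the end 12 of them had fallen and 1 had risen, against 20.2% and 33.8% of all ORFs. The gene that rose was HEF3, which went from 6.72 to 66.0 TPM, a log2 change of 3.12 ± 0.05. CAM1 also had a positive mean change, and its largest change was 0.70 at 60 min. The lowest means among the 14 were those of YEF3, TEF1, STM1 and TEF4. YEF3, for the fungal elongation factor 3, went from 5490.3 to 162 TPM within 60 min. In the same period TEF1, for eEF1A, went from 692 to 46.9 TPM, STM1, for a ribosome-associated protein, from 4180.0 to 375 TPM, and TEF4, for a subunit of the eEF1B complex, from 1413 to 152 TPM. TEF1 has a near-identical copy, TEF2, so its level is uncertain. These differences between lists were not tested, since no column has a replicate.

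The genes whose 5 changes lay closest to the median of the members were DPH5, GUK1, ADE6, GLN4 and ALA1, at Euclidean distances of 0.212 to 0.312 log2 units over 5 time points. DPH5, for an enzyme that modifies elongation factor 2, had levels of 207, 194, 123, 64.6, 48.6 and 46.7 TPM. The nearest ORF to TIF4632 was ATP16 at a distance of 0.071, for a subunit of the mitochondrial ATP synthase, with levels of 350.1, 354, 371, 345, 331 and 278 TPM. TIF1 was nearest to the ribosomal protein gene RPL4B (0.264), TIF3 to GCD11 (0.219), PAB1 to URA2 (0.168) and CDC33 to FKS1 (0.151). SUI2 was nearest to SPC97 (0.089), SUI3 to GLY1 (0.190), SUI1 to SQT1 (0.211), TIF2 to YDR341C (0.193) and TIF4631 to SPE2 (0.362).

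Small MNase fragments upstream of a gene come from DNA held by regulators and other assemblies that cover less DNA than a nucleosome. None of the 6 members in this table passed an absolute log2(count + 63) change of 1 at any time, against 0.0226%, 0.361%, 0.587%, 1.81% and 3.14% of all promoters at the 5 treated time points. The median changes of the 6 were -0.11, -0.09, 0.04, 0.16 and 0.34, close to the -0.09, 0.01, 0.12, 0.28 and 0.40 of all promoters. With each column divided by its median, the last 3 values of the members were -0.11, -0.18 and -0.15, so their sign depends on the scale. The promoter of PAB1 held 179, 160, 124, 167, 191 and 204 fragments in time order. The low after 15 min, which was -0.37 ± 0.12 on the log2 scale with its counting error, lay at the 2.15th percentile of all promoters. It was the lowest promoter change of the 6 at any time, and it was -0.43 with scaled columns. Relative to all promoters, the changes at PAB1 from 15 min on were -0.38, -0.20, -0.21 and -0.26. Its later rise in counts thus did not bring it back to its start on that scale.

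The promoter of CDC33 held 195, 177, 221, 230.0, 226 and 304 fragments. Its last count was higher than its first by 0.51 ± 0.10 on the log2 scale, the highest value of the 6 in the counts as deposited, which was 0.11 above the median of all promoters. With scaled columns it was 0.04, below the 0.08 of TIF4632. The promoter of TIF4632 held 119, 115, 112, 125, 157 and 194 fragments, the fewest of the 6 at every time point. At TIF3 the counts were 292, 250.0, 265, 290.0, 318 and 355, at SUI2 they were 262, 268, 284, 287, 302 and 369, and at SUI3 they were 236, 208, 205, 242, 270.0 and 297. Relative to all promoters, the last change was 0.10 for TIF4632, 0.01 for SUI2, -0.13 for SUI3, -0.16 for TIF3 and -0.26 for PAB1. Counting errors of these changes were 0.10 to 0.12.

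Each of these promoter windows lies next to a gene with its own course, and the counts alone do not say which gene a fragment belongs to. By the strand letters of the ORF names, MMS1 is divergent from TIF3, so the starts of these genes face each other. RPT6, RTC1, POL31, CHD1 and YAR1 lie on the same strand as the member beside them. Their ends, not their starts, face that member. Upstream of TIF4632 lies RPT6, a proteasome subunit gene with its near end 464 bp away, which went from 127 to 643 TPM over the time course. RTC1 upstream of CDC33, MMS1 upstream of TIF3, POL31 upstream of SUI2 and CHD1 upstream of PAB1 all stayed within an absolute change of 1, between -0.86 and 0.46. YAR1, upstream of SUI3 and for a chaperone of a ribosomal protein, had log2 changes of 0.40, 0.14, -1.82, -1.65 and -0.83. In the RefSeq table the 2 eIF4A genes lie downstream of the 2 glycogenin genes, TIF1 after GLG1 and TIF2 after GLG2. GLG1 rose from 7.50 to 41.5 TPM and GLG2 from 14.1 to 54.0 TPM over the 120 min in which TIF1 and TIF2 fell.

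**Figure D4:**
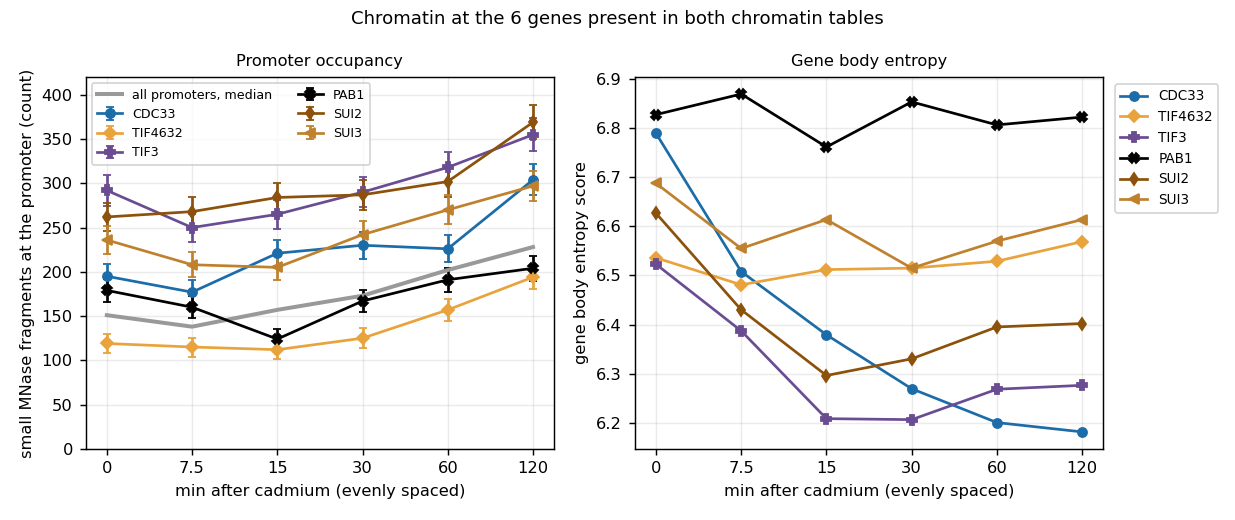
Small MNase fragments at the promoter (left, counts from 0) and gene body entropy score (right, axis not from 0) of the 6 genes present in both tables, by time after cadmium in min at even spacing. Bars on the left are square roots of the counts, the grey line is the median of all 4427 promoters, and entropy has no error estimate. PAB1 dips to 124 fragments at 15 min, and CDC33 goes from an entropy of 6.79 to 6.18.

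A higher entropy score means that nucleosomes sit less regularly along a gene body. The 6 members had median entropy changes of -0.135, -0.195, -0.235, -0.175 and -0.150 in time order, against -0.044, -0.035, -0.013, 0.017 and 0.007 for all ORFs. Scores below those before cadmium were found in 5, 6, 5, 6 and 5 of the 6 members at the 5 treated time points, and in 74.3%, 64.7%, 54.1%, 45.0% and 47.9% of all ORFs. The depth behind entropy is unknown.

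CDC33 had the largest entropy change of the 6. Its scores were 6.79, 6.51, 6.38, 6.27, 6.20 and 6.18. The first of its changes, -0.282 after 7.5 min, came when its RNA change was -0.11, and lay at the 1.15th percentile of all ORFs. After 60 min the change was -0.590, at the 0.723rd percentile. The score of CDC33 was above 72.7% of all ORFs before cadmium and above 2.68% after 120 min.

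SUI2 had its lowest score after 15 min and TIF3 after 30 min, when it was nearly the same as at 15 min. TIF3 had scores of 6.52, 6.39, 6.21, 6.21, 6.27 and 6.28, and SUI2 had scores of 6.63, 6.43, 6.30, 6.33, 6.40 and 6.40. Both lay below the 5th percentile of changes after 15 min, TIF3 at 4.75 and SUI2 at 4.27. From the time of the lowest score to the end, the RNA level of SUI2 went from 285 to 151 TPM and that of TIF3 from 146 to 115 TPM.

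The entropy scores of PAB1 and of TIF4632 each stayed close to their own starting value. PAB1 had scores of 6.83, 6.87, 6.76, 6.85, 6.81 and 6.82, with changes of -0.066 to 0.042. These lay between the 37.9th and the 89.2nd percentile of all ORFs, the highest of them at 7.5 min. TIF4632 had scores of 6.54, 6.48, 6.51, 6.51, 6.53 and 6.57, with changes of -0.055 to 0.033, between the 43.1st and the 57.6th percentile of all ORFs. After 60 min the TPM of PAB1 stood at 20.0% of its start and that of TIF4632 at 96.3%. SUI3 lay between these and the others, with scores of 6.69, 6.55, 6.61, 6.51, 6.57 and 6.61.

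**Figure D5:**
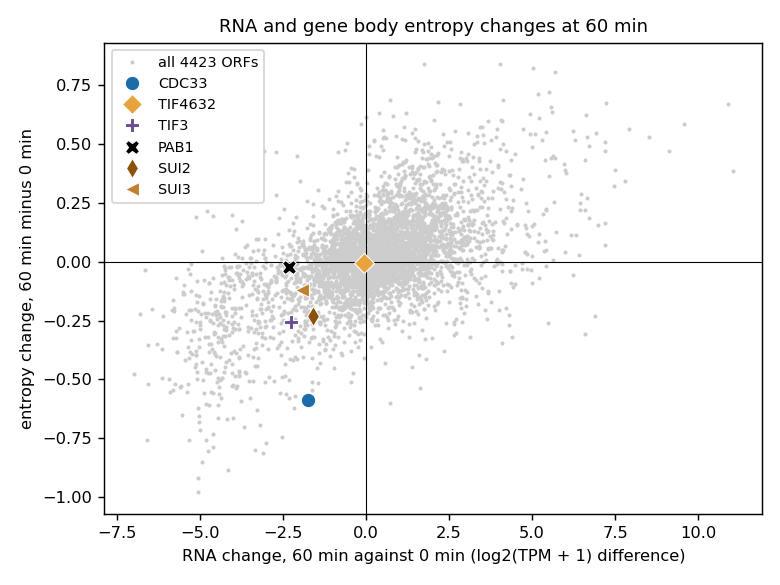
RNA change against gene body entropy change at 60 min, each against 0 min, for the 6 members (coloured symbols) over all 4423 ORFs with both values (grey points). CDC33 lies at -1.75 and -0.590, PAB1 at -2.32 and -0.021, and TIF4632 at -0.05 and -0.007.

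Among the 5 members with chromatin values whose RNA fell, the sizes of the RNA change and of the entropy change were not in the same order. After 60 min the RNA changes were -2.32 for PAB1, -2.27 for TIF3, -1.94 for SUI3, -1.75 for CDC33 and -1.60 for SUI2. The entropy changes were -0.021 for PAB1, -0.255 for TIF3, -0.118 for SUI3, -0.590 for CDC33 and -0.232 for SUI2. PAB1, with the largest RNA change of these 5 at that time by a small margin over TIF3, thus had the smallest entropy change. At 30 and 120 min TIF3 had the largest RNA change, -2.02 and -2.36, with entropy changes of -0.317 and -0.247. PAB1 had RNA changes of -1.97 and -2.15 then, with entropy changes of 0.026 and -0.005. CDC33 had the second largest RNA change at 120 min, -2.31, and the largest entropy change, -0.609.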

How the data were processed

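RNA and MNase chromatin of cadmium-treated yeast were taken from 3 tables deposited by the authors. Values are TPM in the expression table, whole-number fragment counts (a coverage signal) in the promoter table and an entropy score in the gene body table, per the file headers and names. Bowtie 0.12.7 and the builds sacCer3 and R64 are named in the submitters' processing notes without a role. Counting rules, fragment lengths, windows, the entropy formula and whether a column combines both samples are not given in the sources used here. The labels of the second RNA sample set name the expression table, and the tables hold no replicate columns, so each column was used as the authors' value, without SD or n.

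Gene names, lengths and coordinates came from a RefSeq table of assembly R64, which matched 5900 of 6575 ORFs (89.7%). The authors' strain is W303, so positions there may differ. In each column 99.4% to 99.5% of the nonzero TPM values, multiplied by length, were whole multiples of a common step (tolerance 0.02 read). The implied reads were used only for counting errors and 95% intervals, which cover sampling of reads and not biological or library variation. Changes were differences of log2(TPM + 1) over the 5965 ORFs whose mean was 1 TPM or more, differences of log2(count + 63), 63 being the 10th percentile of all counts, and plain entropy differences. An absolute log2 difference of 1 was the threshold. Python 3.11.15, numpy 2.4.6 and pandas 2.3.3 were used, and the computation was tested on simulated reads. All members are named. Beyond them, genes were named if nearest in profile (mean of at least 10 TPM), or if among the 4 largest mean changes in each direction of a list, as were promoter neighbours. PRT1, TIF34, TIF35, the eIF2B subunits GCD1 and GCD6, DED1, TEF2, GLG1 and GLG2 fall outside this rule and were named after their values were seen. Members, lists and thresholds were chosen with earlier results of these data known. No table here gives sequences, so none are shown.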

Additional observations from a re-analysis of the deposited data

How the results depend on the processing

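No paired analysis was possible because the columns carry no replicate numbers, and for the same reason no replicate could be left out. Counts of members past the threshold were unchanged under pseudocounts of 0.1 and 5 TPM, without a filter and with a filter at 10 TPM. With columns rescaled by their median ratio, the count of members that had fallen was 2 at 15 min, when SUI2 joined SUI1, and otherwise the same. As deposited, 12.6%, 16.7%, 18.5% and 20.2% of all ORFs had fallen at 15, 30, 60 and 120 min. In the rescaled columns these shares were 15.2%, 22.3%, 25.4% and 25.8%. The median RNA change of the members then became 0.0092 at 7.5 min, a change of sign, and -0.80, -1.87, -2.55 and -2.59 at the later time points. With a pseudocount of 5 TPM it was -2.17 at 120 min. The median promoter change turned from positive to negative at 30, 60 and 120 min. It was -0.107, -0.178 and -0.146 with columns divided by their median, and -0.103, -0.157 and -0.116 with columns divided by their sum. The median entropy change at 7.5, 15, 30, 60 and 120 min was -0.090, -0.157, -0.224, -0.199 and -0.169 after quantile normalization. Relative to the median of all ORFs it was -0.091, -0.159, -0.222, -0.192 and -0.156. Whether total mRNA per cell changed was not measured, and it sets which scaling of the RNA columns is right. Promoter columns summed to 713795 fragments at 0 min, 653634 at 7.5 min and 1050068 at 120 min. Depth gives the promoter values a counting error of about 0.1 per log2 change, and the depth behind entropy is unknown. Among related genes, the rescaling, applied to them after seeing the data, moved the ribosomal protein genes that had fallen at 15 min from 42 to 82, the elongation and termination genes from 1 to 3 and the eIF2 kinase branch from 0 to 1. At 30 and 60 min it moved the kinase branch from 2 to 3, and at 120 min the eIF2B genes from 3 to 5.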

Other observations

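Genes that act on the poly(A) tail or on the cap after initiation mostly stayed within the threshold. Of 18 genes for PAB1 partners, deadenylases and decapping factors, none had fallen and 1 had risen at each time point from 15 min on. With rescaled columns, an alternative chosen after seeing the data, EDC3 had fallen at 60 min (-1.06) and EDC3 and PUB1 at 120 min (-1.22 and -1.31). In those columns 25.4% and 25.8% of all ORFs had fallen at 60 and 120 min. As deposited, 7 of the 18 stayed within 0.5 of their starting log2 value at all 5 treated times, against 851 of the 5965 ORFs. At 15, 30, 60 and 120 min, 12.6%, 16.7%, 18.5% and 20.2% of all ORFs had fallen and 18.3%, 29.8%, 34.8% and 33.8% had risen. The median changes of the 18 were -0.14, 0.08, 0.15, 0.11 and 0.005 in time order, against -0.10, 0.11, 0.35, 0.44 and 0.34 for all ORFs. The gene that rose was NGR1, for an RNA-binding protein, which had levels of 51.3, 75.9, 178, 221, 199 and 151 TPM. PAN3, for a subunit of the deadenylase that Pab1 recruits, went from 41.5 to 77.3 TPM over the time course, a log2 change of 0.88. XRN1, for the exonuclease that degrades decapped mRNA, had 168 TPM before cadmium and 243 TPM after 30 min. SCD6, for a protein that binds eIF4G, had 135 and 203 TPM at these times. The lowest mean changes were those of EDC3, DCP1, PUB1 and POP2, and PUB1, which encodes a poly(A)+ RNA-binding protein, had 504 TPM before cadmium and 259 TPM at the end, a log2 change of -0.96. PAB1 went from 1424 to 319.5 TPM over the same time. No difference between these genes and the initiation factors was tested, as the columns have no replicates.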
